A study of Mus musculus with 2 samples.

Results

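The cells described here are the Pi16/Cd81-high fibroblasts of the mouse colon, 1 of 2 kinds of crypt bottom fibroblast in a library sorted for a Pdgfra reporter. They were chosen cell by cell from measured values: Epcam and Ptprc at 0, Col1a1 of at least 1, a sum of F3, Sox6, Wnt5a and Acta2 under 4, and a sum of Pi16, Pcolce2 and Cd81 of at least 3. Of 4409 reporter cells, 697 met the rule, which is 15.8% (exact binomial 95% interval 14.7% to 16.9%) of that library, and the series holds 11904 cells in all. Among the 4208 cells with Col1a1, the 697 made up 16.6% (15.5% to 17.7%). Because these 10 genes picked the cells, their values below are descriptions, and so are those of all other genes, which come from the same cells.

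The reporter mice carried Pdgfra-H2B-eGFP, a nuclear green fluorescent histone fusion driven from the Pdgfra locus, and green mesenchymal cells of the colon were sorted on viability and fluorescence alone. The second library came from wild-type C57BL/6 colon, where an antibody sort for EpCAM and CD45 gave epithelial and non-epithelial cells that were mixed in equal parts. Each library pooled 3 untreated female mice aged 8 to 12 weeks, with 16000 cells loaded on a 10x chip, the V2 kit for the reporter and the V3 kit for the wild type. Nothing maps cells to mice, so each library is 1 sample, no test between groups was possible, and intervals cover counting error only. The reporter cells stem from 1 mouse line, and that sort selected for green fluorescence and not for Pdgfra RNA.

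Fibroblasts of the colonic lamina propria and submucosa build the collagen scaffold and send signals to the crypt epithelium. Toward the crypt bottom they are known to supply Wnt agonists, R-spondins and BMP antagonists, which keep stem cells cycling, while fibroblasts at the crypt top secrete BMP ligands that favour differentiation. Pi16-positive fibroblasts are known from many tissues as cells of the vessel adventitia and of connective tissue sheets, often with high Cd34, Ly6a and Dpp4. Position along the crypt was not measured in these libraries, so "crypt bottom" is the label of the class here and not a measured place.

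Values are corrected counts per cell: unique molecules per gene that the authors adjusted to a common depth, so a level can be compared between cells of 1 library, but not between genes in molar terms, since nothing was divided by transcript length or capture rate. The total per reporter cell ran from 2314 to 4432 (median 3150), with 303 to 2393 genes detected (median 1381). The Pi16/Cd81-high cells had a median total of 2978 with 1286 genes and 2.21% mitochondrial counts. Against them stood 2920 cells with a low sum on both marker sets, called low-sum cells below, whose medians were 3145.5, 1377 and 2.42%. The 541 cells whose sum of F3, Sox6, Wnt5a and Acta2 was 4 or more, called crypt-top-gene cells, had medians of 3353, 1552 and 2.02%. The remaining Col1a1-positive cells, 50 in number, held Epcam or Ptprc. Wild-type cells were deeper, with a median total of 8972, and the libraries shared 1 cell barcode.

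Of the marker genes in the rule, Cd81 was above 0 in 657 of the 697 cells (94.3%), Pcolce2 in 443 (63.6%) and Pi16 in 320 (45.9%). Cd81 is a tetraspanin of the cell surface, Pcolce2 enhances the enzyme that trims procollagen ends, and Pi16 is a peptidase inhibitor. The mean corrected count was 3.67 for Cd81, 1.55 for Pcolce2 and 1.80 for Pi16, and the highest single cell reached 14, 11 and 39. The sum of the 3 genes ran from 3 to 43 with quartiles of 4, 6 and 9. It fell off smoothly, with no gap at the limit of 3. Just inside, the 121 cells with a sum of 3 had mean C3 of 3.18, Ebf1 of 1.97 and Adamdec1 of 1.48. Just outside, the 183 cells with a sum of 2 had 3.16, 1.52 and 2.6, so C3 was level across the limit and Adamdec1 was not. On the other limit, 438 of the 697 had a crypt-top sum of 0, 169 of 1, 64 of 2 and 26 of 3, while 9 cells with enough marker counts were left out at a sum of 4 and 16 at 5 or more.

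**Figure D1:**
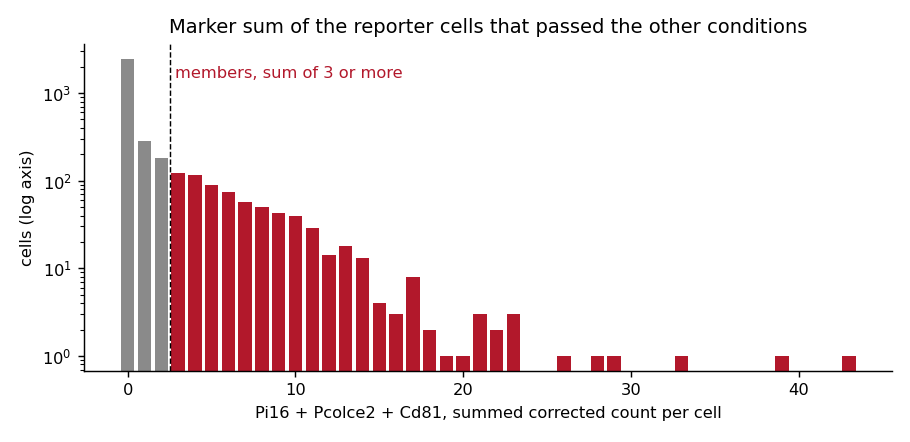
Number of reporter cells (log axis) at each summed corrected count of Pi16, Pcolce2 and Cd81, among cells that passed every other condition of the rule. Red bars are the 697 chosen cells at sums of 3 to 43, grey bars the cells below the limit, and the count falls without a gap across the dashed line.

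C3 and Col14a1 are listed markers of the class that were not in the rule. The markers were listed with earlier results of these data known, so their values describe the class and do not test its label. C3, the central complement protein (chromosome 17, 57203970 to 57228136, minus strand, GRCm38), averaged 4.12 in the Pi16/Cd81-high cells, 1.05 in low-sum cells and 0.211 in crypt-top-gene cells. It was above 0 in 79.1% (75.8% to 82.0%) of the Pi16/Cd81-high cells and in 40.3% (38.6% to 42.1%) of the low-sum cells. Col14a1, a collagen that sits on the surface of other collagen fibrils (chromosome 15, 55307750 to 55520803, plus strand), had means of 2.97, 0.815 and 0.185 across these classes. C3 and Col14a1 were thus highest in the labelled class, but also present in many low-sum cells. The sorted gene itself, Pdgfra, averaged 0.439 in the Pi16/Cd81-high cells (above 0 in 31.3%), 0.342 in the low-sum cells (26.1%) and 1.06 in the crypt-top-gene cells (57.5%).

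The upstream windows of Pi16 and Cd81, rule genes that differed in how widely they were detected, are shown. The window of Il33, a gene that was higher in the class, holds TATAAA and is shown beside them. Each is the 250 bases before a RefSeq start on GRCm38.p6, 5′ to 3′ on the gene's strand, with CG pairs and the letters TATAAA in capitals. Pi16 comes from chr17:29318632-29318881, Cd81 from chr7:143052500-143052749 and Il33 from chr19:29945540-29945789, all on the plus strand.
Pi16: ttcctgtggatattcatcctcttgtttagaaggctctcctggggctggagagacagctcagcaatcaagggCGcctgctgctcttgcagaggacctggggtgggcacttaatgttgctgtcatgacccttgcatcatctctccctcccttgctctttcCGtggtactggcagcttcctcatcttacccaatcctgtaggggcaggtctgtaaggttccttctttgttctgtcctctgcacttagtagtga
Cd81: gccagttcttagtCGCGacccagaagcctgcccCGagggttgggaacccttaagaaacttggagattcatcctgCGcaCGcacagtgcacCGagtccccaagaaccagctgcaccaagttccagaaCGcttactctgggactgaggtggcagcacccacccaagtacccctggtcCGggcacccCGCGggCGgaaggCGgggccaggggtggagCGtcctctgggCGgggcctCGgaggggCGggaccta
Il33: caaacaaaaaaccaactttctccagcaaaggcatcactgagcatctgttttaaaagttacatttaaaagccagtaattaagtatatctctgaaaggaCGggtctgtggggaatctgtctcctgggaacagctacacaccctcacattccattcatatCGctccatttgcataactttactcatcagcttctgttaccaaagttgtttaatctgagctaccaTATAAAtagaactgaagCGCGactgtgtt
The Pi16 window holds 2 CG pairs at 52.4% GC, the Cd81 window 16 at 65.6%, and the median of all 32851 windows is 6 at 52.4%. Il33 has a second window, at chr19:29924863-29925112. TATAAA, read on the gene's strand only, lies 29 bases before the start in the window shown and 203 bases before it in the other. Of 9 genes named below as higher in the class that had a window, 1 (Il33) held TATAAA, against 8.94% of 27025 genes. Beside these windows, epithelial cells of the wild-type library (2461 cells with Epcam of at least 5 and no Col1a1) had Cd81 above 0 in 72.2% and Pi16 in 0.406%. Cd81 was thus widely detected in these epithelial cells, and Pi16 was not.

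Against all other Col1a1-positive reporter cells, 4097 genes were above 0 in at least 10% of either group and were compared, and 140 (3.42%) were at least 2-fold higher and 195 (4.76%) at least 2-fold lower in the Pi16/Cd81-high cells. Ratios throughout were taken as mean plus 0.01 over mean plus 0.01, which understates ratios of the scarcest genes, and the median log2 ratio over all compared genes was -0.13. Genes scarce in both groups never entered, so a gene compared only because it was high in 1 group had to differ. The counts of the gene lists below include such genes and share this limit. Against the low-sum cells alone the counts were 137 (3.41%) higher and 172 (4.28%) lower of 4018, with a median of -0.10. The low-sum cells are the closest class, and the folds below are against them unless stated.

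Ebf1, a transcription factor of B cells and of mesenchymal precursors (chromosome 11, 44617317 to 45008091, plus strand), ranked first outside the rule against all other Col1a1-positive cells and came after Sfrp4 and Ptn against the low-sum cells. It averaged 2.68 in the Pi16/Cd81-high cells, 0.184 in low-sum cells and 0.063 in crypt-top-gene cells, a 13.9-fold difference from the low-sum cells. It was above 0 in 73.7% (70.3% to 77.0%) against 6.16% (5.32% to 7.10%) of low-sum cells. The 183 low-sum cells with a marker sum of 2 averaged 1.52, so Ebf1 did not stop at the limit of the rule. Sfrp4, a secreted Frizzled-related protein that binds Wnts, averaged 0.747 against 0.0425 (14.4-fold), yet only 25.8% of the Pi16/Cd81-high cells had a count. Ptn, the heparin-binding growth factor pleiotrophin, averaged 0.710 against 0.0414 (14-fold) and was found in 17.8%. Gas1, a membrane co-receptor for hedgehog proteins, averaged 0.981 against 0.0702 (12.4-fold) and was found in 39.9%. Sfrp4, Ptn and Gas1 were therefore detected in a minority of the class at this depth, and Ebf1 in most of it.

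The matrix protein Cilp averaged 0.709 against 0.0586 (10.5-fold), with crypt-top-gene cells between at 0.257. Gpc3, a glypican that holds growth factors at the surface, averaged 0.783 against 0.0846, and Prss23, a secreted serine protease, 2.90 against 0.357. Scara5, a ferritin receptor, averaged 0.862 against 0.123. Prss23 was the widest of these, present in 76.9% of the Pi16/Cd81-high cells and in 19.8% of low-sum cells. Igfbp6, a binding protein that prefers IGF2, averaged 3.57 against 0.608 and was above 0 in 81.1% (78.0% to 83.9%) of the class. Il33, an alarmin cytokine kept in the nucleus, averaged 0.585 against 0.0908. The remaining genes named by size were 4.2-fold to 5.3-fold higher: Dpep1 (a membrane dipeptidase), Gm12840 (a predicted gene), Adamts5 (an aggrecan-cleaving protease), Ifi204 (an interferon-induced protein), Ptgis (prostacyclin synthase) and Plxdc2.

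Among genes that were lower, Adamdec1 stood first. This secreted metalloprotease of the gut (chromosome 14, 68563380 to 68582095, minus strand) averaged 0.620 in the Pi16/Cd81-high cells, 8.46 in low-sum cells and 7.92 in crypt-top-gene cells, a 13.5-fold difference from the low-sum cells. It was above 0 in 30.0% (26.6% to 33.5%) against 83.9% (82.5% to 85.2%). Wnt4 averaged 0.0373 against 0.474 (10.2-fold lower), and the EGF family ligand Ereg 0.057 against 0.508. Enho, the precursor of adropin, averaged 0.040 against 0.422, the integrin ligand Edil3 0.049 against 0.457, and the adhesion adaptor Fblim1 0.039 against 0.335. The membrane protein Tmem176b was more abundant and averaged 0.957 against 6.47. Adamdec1, Wnt4, Enho, Ereg and Fblim1 were lower against the crypt-top-gene cells too, whereas Edil3 was near 0 in both classes (0.049 and 0.039).

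Jchain, Igkc and Igha, the antibody chains of plasma cells, also ranked among the lowest genes, at log2 ratios of -3.69, -3.27 and -2.84. Their summed level averaged 0.461 in the Pi16/Cd81-high cells and 4.66 in low-sum cells, but the median was 0 in both and 38 low-sum cells held sums above 10, up to 1850. None of the 697 exceeded 4. Without those cells the ratios were -0.94, -0.62 and -0.56, within 2-fold, so these 3 genes are not counted here as a property of the class.

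**Figure D2:**
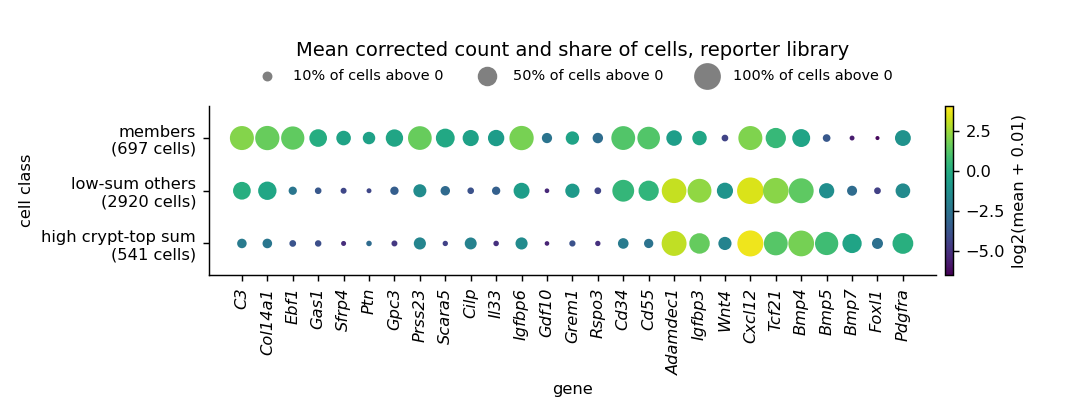
Mean corrected count (colour, log2 of mean plus 0.01) and share of cells above 0 (dot area) for genes named in the text, in the 697 Pi16/Cd81-high cells (members), the 2920 low-sum cells and the 541 crypt-top-gene cells of the reporter library. Ebf1, Gas1, Sfrp4 and Gdf10 have their highest means in the top line among these 3 classes. Adamdec1, Wnt4 and Igfbp3 are dimmest in the top line, and Bmp5, Bmp7 and Foxl1 are strongest in the bottom line.

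A list of 18 genes of adventitial and progenitor fibroblasts was described next. Of 17 compared, 9 were at least 2-fold higher and 1 lower against the low-sum cells, beside 3.41% and 4.28% of all genes, with a median log2 ratio of 1.15. The lower gene was Col15a1, whose values are given below among the collagens. Against the crypt-top-gene cells 14 were higher and 0 lower, beside 6.27% and 12.1% of all genes, with a median of 2.29. Ackr4, a scavenging chemokine receptor, averaged 0.184 against 0.00548, the hyaluronan synthase Has1 1.46 against 0.410, and the matrix protein Dpt 8.98 against 3.81. Anxa3, Sema3c, Tnxb, Cd248 and Adgrd1 were 2.2-fold to 3.8-fold higher. Several of the best known genes of such cells were within 2-fold of low-sum cells: Ly6a averaged 7.11 against 5.33, Clec3b 8.64 against 7.76 and Cd34 2.23 against 1.35. Dpp4 was scarce, at 3.59% of the Pi16/Cd81-high cells, 0.0685% of low-sum cells and 0 of the 541 crypt-top-gene cells, and was not compared. Thy1, a surface glycoprotein, averaged 0.44 against 0.566.

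Genes that mark the other crypt bottom class gave the opposite picture. The paper named several of them, such as Igfbp3, Igfbp5 and Adam23, from the wild-type library of this series. Their values therefore describe the class and do not test its label. Of 7 compared, 0 were higher and 6 at least 2-fold lower against the low-sum cells, with a median log2 ratio of -2.15, beside 3.41% and 4.28% of all genes. Against the crypt-top-gene cells 1 of 5 was lower, beside 12.1% of all genes, and the median was 0.02. Igfbp3 averaged 0.819 against 4.83, the protease inhibitor Serpina3n 0.314 against 1.35, and the chemokine Ccl8 0.277 against 0.638. Adam23, Edil3 and Tnfsf13b were the others, and Adam23 and Edil3 passed the 10% filter through the low-sum cells alone. Outside this list, Cxcl12, the chemokine for Cxcr4, averaged 3.94 against 10.5, and Tcf21, a bHLH factor of visceral mesenchyme, 1.43 against 4.34. Cxcl12 therefore remained among the more abundant transcripts of the class although it was lower than in either other class (13.2 in crypt-top-gene cells).

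The niche signals were read by role. Of the Wnt ligands, 3 were compared, and 2 were at least 2-fold lower than in low-sum cells, beside 4.28% of all genes: Wnt4, above, and Wnt5b, at 0.093 against 0.246. Wnt2 and Wnt2b, the canonical Wnts of gut mesenchyme, averaged 0.056 and 0.0187 against 0.0983 and 0.0592 and were too scarce to compare. Rspo3, an R-spondin that amplifies Wnt signals at the stem cell, averaged 0.135 against 0.0397 in low-sum cells and 0.0203 in crypt-top-gene cells, and was above 0 in 11.5%, 3.36% and 1.48%. Rspo1 averaged 0.0631 against 0.0151 and was not compared. Of 5 secreted Wnt inhibitors compared with the low-sum cells, Sfrp4 was higher, while Sfrp1 (1.05 against 2.30), Sfrp2 (0.126 against 0.434) and Frzb (0.022 against 0.124) were lower. Dkk3 averaged 0.334 against 0.668, and Wif1 was listed at 0 in every one of the 697 cells against a mean of 0.377 in crypt-top-gene cells. The inhibitors thus did not move together.

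Of 6 BMP ligands compared with the low-sum cells, 3 were at least 2-fold lower and 1 higher, with a median log2 ratio of -1.29, beside 4.28% and 3.41% of all genes and a median of -0.10. Bmp5 and Bmp7 passed the 10% filter through the low-sum cells alone, and Gdf10 through the Pi16/Cd81-high cells alone. Against the crypt-top-gene cells, Bmp3, Bmp5 and Bmp7 likewise entered through that other class alone. Their calls therefore follow in part from the filter. Of 7 compared with the crypt-top-gene cells, 5 were lower and 1 higher, with a median of -2.36, beside 12.1% and 6.27% of all genes and a median of -0.34. Bmp4 averaged 0.763 in the Pi16/Cd81-high cells, 2.61 in low-sum cells and 3.44 in crypt-top-gene cells. Bmp5 averaged 0.0703, 0.384 and 1.67, and Bmp7 0.010, 0.129 and 0.771, each lowest in the Pi16/Cd81-high cells and highest in the crypt-top-gene cells. Bmp3 averaged 0.0187, 0.0205 and 0.630, so only the last class stood apart. The exception was Gdf10, a BMP-like ligand also called BMP3b, at 0.169, 0.0158 and 0.0129, 6.96-fold higher than in low-sum cells.

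Of the BMP antagonists, 4 were compared with the low-sum cells and 0 passed 2-fold in either direction. That is near the 3.41% higher and 4.28% lower of all genes. Grem1, the BMP antagonist best known from the crypt base (chromosome 2, 113746164 to 113758646, minus strand), averaged 0.739 in the Pi16/Cd81-high cells, 0.560 in low-sum cells and 0.0592 in crypt-top-gene cells. It was thus 10.8-fold above the crypt-top-gene cells and 1.31-fold above the low-sum cells. It was above 0 in 20.9% (18.0% to 24.2%) of the class and in 24.4% (22.9% to 26.0%) of low-sum cells. These intervals cover counting error only, and the difference was not tested. Fstl1 averaged 3.19 against 1.80. Fst and Chrdl1, at 0.089 and 0.0717 against 0.0045 and 0.0079, were too scarce to compare.

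Of 12 growth factors compared with the low-sum cells, 5 were higher, among them Ptn, and 2 were lower, beside 3.41% and 4.28% of all compared genes. Igf1 averaged 1.40 against 0.669, and Vegfd, a lymphatic growth factor, 0.294 against 0.0435. The guidance ligand Efna5 averaged 0.201 against 0.0589. Fgf10 and Hgf, ligands for epithelial receptors, were lower, at 0.0244 against 0.213 and 0.0473 against 0.177. Fgf2 averaged 0.156 against 0.073, just within 2-fold. Of 5 IGF-binding proteins compared, 1 was higher (Igfbp6) and 1 lower (Igfbp3), while Igfbp4 (5.62 against 7.79) and Igfbp7 (11.2 against 17.7) were abundant in both.

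The matrix genes differed by type. The main fibrillar collagens were alike: Col1a2 averaged 8.59 against 7.12 and Col3a1 17.6 against 15.4. Of 17 collagens compared with the low-sum cells, 3 were higher and 3 lower. For these and the other matrix lists, the shares over all compared genes were 3.41% higher and 4.28% lower. Col14a1, above, Col6a3 (1.52 against 0.437) and Col8a1 (0.476 against 0.140) were higher. Col12a1 (0.197 against 0.676), the multiplexin Col15a1 (0.395 against 0.999) and Col18a1 (0.166 against 0.561) were lower. Of 14 genes of collagen processing, 1 was higher, the rule gene Pcolce2, and 1 lower, the crosslinking enzyme Lox (0.085 against 0.187), and the Pcolce2 relative Pcolce averaged 3.19 against 2.81. Of 8 small proteoglycans, 1 was higher, Lum (8.91 against 4.18), and Dcn (34.1 against 18.8) was within 2-fold. Of 12 genes of elastic fibres, 3 were higher and 0 lower, namely Emilin2 (0.287 against 0.091) and the microfibril genes Mfap5 (3.19 against 1.16) and Fbn1 (1.60 against 0.791). Thbs1, an activator of latent TGF-beta, averaged 1.29 against 0.432 and was the 1 gene of 10 in the TGF-beta list past 2-fold. Of 9 metalloproteinases and inhibitors, Adamts5, above, and Adamts1 (0.773 against 0.363) were higher.

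Of 11 complement genes compared with the low-sum cells, 2 were at least 2-fold higher and 0 lower (3.41% and 4.28% of all genes), with a median log2 ratio of 0.05: C3, above, and the C1q-related C1qtnf7 (0.164 against 0.069). Against the crypt-top-gene cells 7 of 10 were higher and 0 lower, beside 6.27% and 12.1% of all genes. The shield protein Cd55 (2.23, 1.29 and 0.165 in the 3 classes) was highest in the Pi16/Cd81-high cells and lowest in the crypt-top-gene cells. Serping1, the C1 inhibitor, was broad at 6.08, 5.09 and 2.68, and C4b ran the other way against low-sum cells, at 1.04 against 1.83.

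Chemokines and cytokines split. Of 18 compared with the low-sum cells, 2 were higher, Il33 and Ccl7, and 7 were lower, beside 3.41% and 4.28% of all genes. Ccl7, a monocyte attractant, averaged 3.61 against 1.18. Lower ones were the interferon-induced Cxcl10 (1.03 against 2.54) and Cxcl9 (0.0875 against 0.543), Cxcl14 (0.113 against 0.540) and the B cell survival factor Tnfsf13b (0.199 against 0.921). Ccl2, Ccl11 and Il6 were alike, at 1.97, 3.22 and 0.908 against 1.61, 3.09 and 0.95. Vcam1, an adhesion receptor for leukocytes, averaged 0.354 against 1.09, and 3 of 9 genes of the inflammatory list were lower with 0 higher, with the same shares of all genes as background.

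Among 15 transcription factors compared with the low-sum cells, 2 were higher, Ebf1 and Foxp2 (0.176 against 0.0531), and 3 were lower, Tcf21 among them, beside 3.41% and 4.28% of all genes compared. Foxf2 averaged 0.022 against 0.159 and Runx1 0.044 against 0.188. The gut mesenchyme factors Foxf1 (0.347 against 0.658) and Nkx2-3 (0.333 against 0.660) were just within 2-fold. Prrx1 (0.0976 against 0.0103) and Osr2 (0.116 against 0.00582) were above 0 in fewer than 10% of cells of both groups and were not compared. Only 2 of 10 hedgehog genes were compared, and these went opposite ways. The co-receptor Gas1 was higher and the receptor and target Ptch1 lower (0.122 against 0.383). The retinol dehydrogenase Rdh10 was lower, at 0.146 against 0.487. Of 6 prostaglandin genes, Ptgis and the prostaglandin-degrading Hpgd (0.319 against 0.0897) were higher and the synthase Ptges (0.189 against 0.418) lower. Of 10 tetraspanins, the only one past 2-fold beside Cd81 was Cd82, at 0.0803 against 0.357. The same shares of all genes, 3.41% and 4.28%, apply to these pathway lists. Of 14 immediate early and stress genes, 1 was lower, not far from that background, the heat shock gene Hspa1a, at 3.65 against 7.87 in low-sum cells and 12.9 in crypt-top-gene cells.

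Against the crypt-top-gene cells, 288 of 4595 genes (6.27%) were at least 2-fold higher in the Pi16/Cd81-high cells and 557 (12.1%) lower, with a median log2 ratio of -0.34 over all compared genes. Fewer genes were detected in the Pi16/Cd81-high cells (1286 against 1552). With every cell thinned to 2000 corrected counts, the lower count was 307 in place of 557, while 141 ratios of named genes moved by less than 1.5 times and 3 by more. Ebf1 was the highest at a log2 ratio of 5.20, then Sfrp4 at 4.73, Gpc3 at 4.47 and Il33 at 4.29. At the other end, Procr, the protein C receptor, averaged 0.062 against 3.32, the actin-binding Tagln 0.098 against 5.39, and Emid1 0.024 against 1.21. Foxl1, known from telocytes below the epithelium, averaged 0.00287 against 0.150. Gli1, a hedgehog target, was scarce in all 3 classes (0.056, 0.0774 and 0.0961).

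Levels changed gradually with the marker sum, on both sides of the limit. From the 2455 cells with a sum of 0 to the 33 with 15 or more, mean Igfbp6 went from 0.505 to 6.52, Prss23 from 0.223 to 5.03 and Ebf1 from 0.0566 to 3.39. In the same span Adamdec1 went from 9.39 to 0.212, Cxcl12 from 10.7 to 1.33 and Tcf21 from 4.52 to 0.636. C3 levelled off early, at 0.853 for a sum of 0, 3.16 for 2, 4.59 for 7 to 9 and 3.67 for 15 or more. Grem1 was highest in the middle, at 0.485 for a sum of 0, 1.24 for 4 and 0.0909 for 15 or more. Cells with more total counts can hold larger sums, and a cell's sum shares its depth with every other gene.

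**Figure D3:**
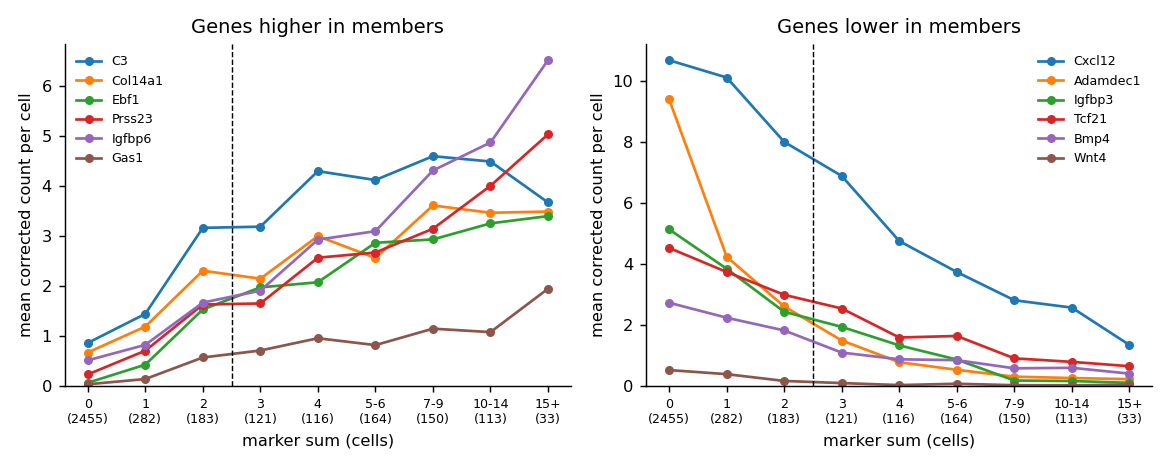
Mean corrected count of 6 genes higher (left) and 6 genes lower (right) in the Pi16/Cd81-high cells, by the sum of Pi16, Pcolce2 and Cd81 per reporter cell, with the number of cells under each bin and a dashed line at the limit of the rule. Igfbp6 climbs from 0.505 to 6.52 and Adamdec1 drops from 9.39 to 0.212, with no step at the line.

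The 697 cells were not uniform. Cd81 was the only marker above 0 in 163 of them (23.4%), Pcolce2 with Cd81 in 202 (29.0%), Pi16 with Cd81 in 82 (11.8%) and all 3 in 210 (30.1%), and 40 (5.74%) lacked Cd81. The cells with Cd81 alone stood nearer to the low-sum cells: they averaged 1.83 for C3, 1.20 for Ebf1, 8.11 for Cxcl12 and 3.43 for Tcf21. Cells with all 3 markers averaged 5.00, 3.30, 2.26 and 0.533. Ptn was most abundant in the cells with Cd81 alone, at 1.5, then 0.827 with Pcolce2 and Cd81, 0.310 with all 3 and 0.195 with Pi16 and Cd81. Sfrp4 and the complement shield Cd55 had the reverse order between the ends, at 0.209 and 1.34 with Cd81 alone and 1.40 and 3.33 with all 3. Grem1 was highest with Pcolce2 and Cd81, at 1.08, and lowest with all 3, at 0.386. Mean levels of these genes thus ordered the marker sets in different ways.

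**Figure D4:**
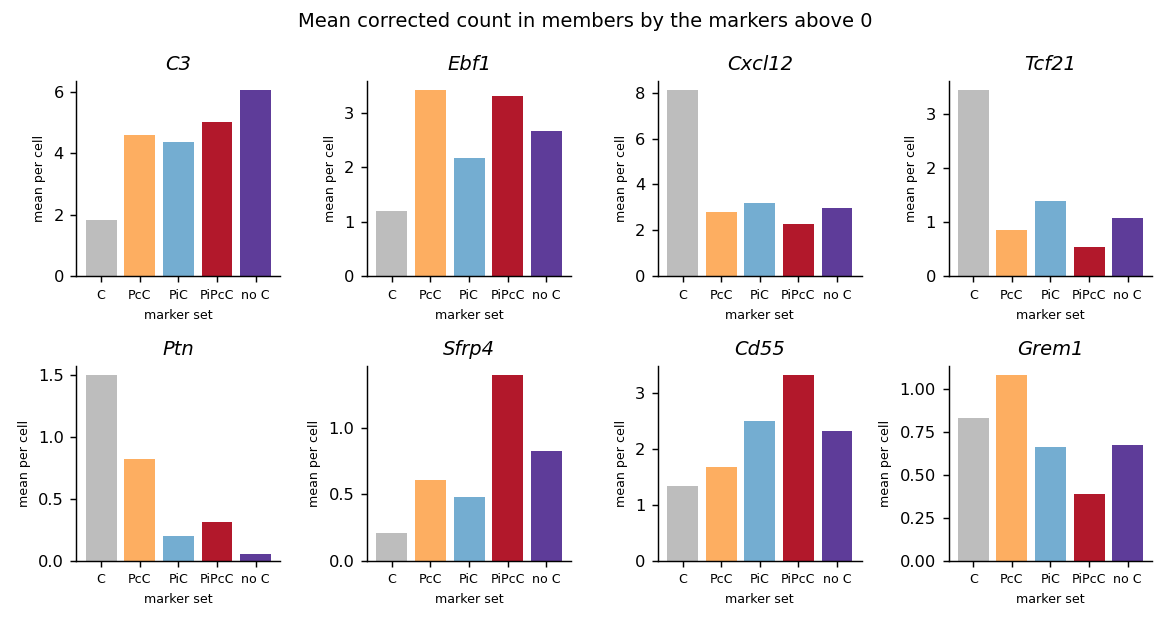
Mean corrected count per cell of 8 genes in the Pi16/Cd81-high cells, split by the markers above 0: C, Cd81 alone (163 cells), PcC, Pcolce2 with Cd81 (202), PiC, Pi16 with Cd81 (82), PiPcC, all 3 (210) and no C, Pi16 or Pcolce2 without Cd81 (40). Cxcl12, Tcf21 and Ptn are highest with Cd81 alone, while C3 is lowest there.

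Over the 697 cells, the genes whose natural-log values went most with the sum of Pi16 and Pcolce2, of 3373 considered, were Col14a1 (r = 0.41), Mfap5 (0.40), Igfbp6 (0.39), Crip1 (0.38) and Prss23 (0.36). At the opposite end, picked after the values were seen, were the interferon-induced Ifitm1 (-0.46), Tcf21 (-0.43), Cxcl12 (-0.41) and Igfbp7 (-0.41). All points come from 1 library of sparse counts and share its depth correction, so these weak values only describe it.

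Markers of other cell types were low in the Pi16/Cd81-high cells. Summed epithelial markers averaged 0.0574 with 5 of 10 genes at 0, against 0.0860 in low-sum cells and 0.107 in crypt-top-gene cells, and Epcam was 0 by the rule. Immune markers averaged 0.188 against 0.562 and 0.460, and smooth muscle markers 0.280 against 0.371 and 5.79. Pericyte markers were somewhat above the low-sum cells, at 0.307 against 0.118, and 3.59% of the class held a pericyte sum above 2 against 0.582%. Endothelial markers averaged 0.0890 against 0.144, from the 4 of 8 genes in the table. Of 8 mesothelial markers 2 were in the table, with a mean sum of 0.105 against 0.0154, and Wt1 was above 0 in 8.18% against 0.411%. The part of pericyte or mesothelial RNA in the ratios above was not tested.

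The same rule in the wild-type library, which did not choose the reporter cells, found 407 cells, 8.72% (7.93% to 9.57%) of its Col1a1-positive cells. Of the cells that met every condition but the marker sum they were 38.3% (35.3% to 41.2%), against 19.3% (18.0% to 20.6%) in the reporter library. The libraries differ in mouse line, sort, kit and depth, and these cannot be told apart. Against the other low-sum cells of that library, 474 of 8158 genes (5.81%) were at least 2-fold higher and 153 (1.88%) lower, with a median log2 ratio of 0.14. Against all its other Col1a1-positive cells the counts were 493 (6.05%) higher and 315 (3.87%) lower of 8149, with a median of 0.24. Of those 4260 other cells, 2429 held Epcam or Ptprc, against 50 of 3511 in the reporter library. Summed epithelial markers averaged 26.0 in these 4260 cells and 2.86 in the 407 cells, and 9 of 9 epithelial and 7 of 8 smooth muscle markers compared were lower in the 407. The rule itself placed cells with Epcam, Ptprc or high Acta2 among the others. These marker contrasts therefore follow at least in part from the rule.

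The leading genes pointed the same way in both libraries. Ebf1 averaged 5.94 against 0.161 in wild-type low-sum cells, C3 12.5 against 0.359 and Col14a1 9.22 against 3.30. The log2 ratio of Cilp was 6.13, of Ackr4 6.29, of Gas1 4.62, of Sfrp4 4.06 and of Gdf10 3.21, each with the sign it had in the reporter library. Adamdec1 averaged 2.04 against 35.9, and Grem1 averaged 3.05 against 1.14, past 2-fold in the wild type and not in the reporter library, a difference that was not tested. Leaving out the genes of the rule, 129 genes were at least 2-fold higher in the reporter library and compared in both, and 101 of them were also higher in the wild type, which is 78.3% of the reporter genes and 54.0% of the 187 wild-type genes. Of 160 lower genes, 86 were also lower, which is 53.8% of these and 88.7% of the 97 wild-type genes. As background, 187 of all 3936 genes compared in both libraries were higher in the wild type and 97 were lower. Plk2, a stress-induced kinase picked out after its values were seen, was the 1 gene past 2-fold in opposite directions. Across the 3936 genes compared in both, the ratios correlated at r = 0.80, as a description over genes, which are not independent replicates.

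**Figure D5:**
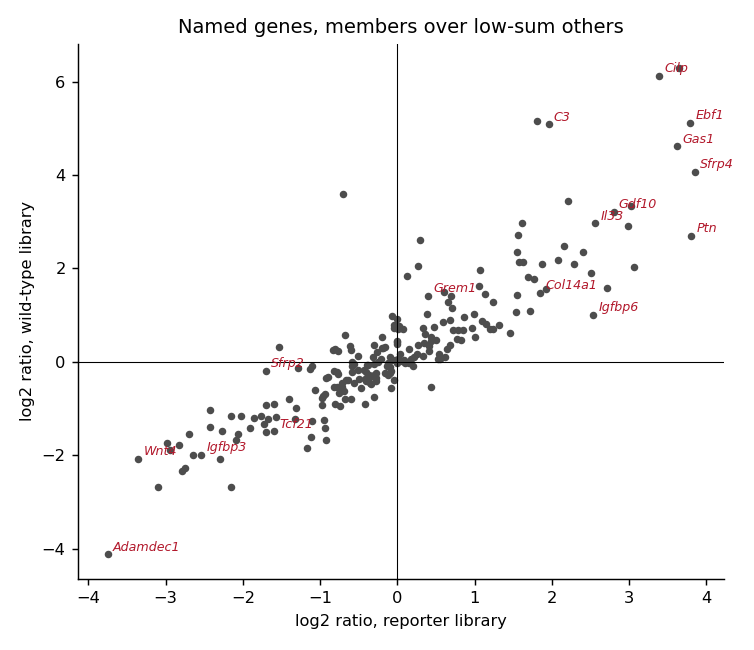
Log2 ratio of the Pi16/Cd81-high cells over low-sum cells for 225 named genes in the reporter library (horizontal axis) and the wild-type library (vertical axis), each point 1 gene. The sign matched for 194 genes, with Ebf1, Gas1 and Sfrp4 at the upper right and Adamdec1 at the lower left. The plotted genes were picked by their reporter values or taken from the gene lists, so the match only describes them. The share of matching signs over all genes compared in both libraries is not given here.

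The wild-type cells carried more RNA of other cell types. Endothelial markers summed to a mean of 6.22 against 0.358 in low-sum cells, pericyte markers to 4.35 against 1.11 and glial markers to 0.629 against 0.0137. Without the cells whose sums exceeded 2, 327 of the 407 remained. Ptn was lower without them, averaging 0.725 in all 407 cells and 0.297 in the 327. The low-sum cells that remained averaged 0.104, a log2 ratio of 1.43, but Ptn was then too scarce to be compared. Epithelial cells of the same library had Pi16, Pcolce2 and C3 above 0 in 0.406%, 0.447% and 0.406%, at a median of 3199 genes per cell, against 41.0%, 65.8% and 66.1% of the 407 cells at 2903 genes, so their background in cells that should lack them was low.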

How the data were processed

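Both libraries were 10x Chromium single-cell RNA-seq. The authors aligned reads to mm10 with Cell Ranger 3.0.1, then filtered and corrected cells in Seurat 3.1 under R 3.6.2. The stated filters were 500 to 4000 genes and at most 10% mitochondrial counts per reporter cell, and 500 to 7500 genes and 25% in the wild type. 2 reporter cells fell under 500 genes. The deposited table called raw holds whole numbers that are not molecule counts but a score, the SCTransform-corrected count, which evens out depth between cells and can move ratios. The second table deposited by the authors is the natural log of 1 plus that value.

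Group means were compared as ratios with a pseudocount of 0.01 for genes above 0 in at least 10% of either group, and 2-fold marks a difference. Being 1 library per group, no count model or test was run. Named genes were the 15 highest and 10 lowest ratios per comparison with a mean of at least 0.3, the 15 best correlated genes, and the members of the gene lists. The cells and lists were chosen with earlier results of these data known. No doublet caller was run, and the top 5% of cells by genes detected were left out as an alternative. Gene positions came from GENCODE M21 on GRCm38, with 15594 of 15972 genes (97.6%) matched by symbol. Other alternatives were the marker limits, pseudocount, gene filter, scaling to the group total and thinning to 2000 counts per cell. Python 3.11.15, NumPy 2.4.6, pandas 2.3.3 and SciPy 1.17.1 were used, and the ratio code was tested on simulated data. Some genes are not reported here.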

Additional observations from a re-analysis of the deposited data

Results flagged for a closer look

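Sfrp2, a secreted Wnt inhibitor, had a log2 ratio of -1.48 between the Pi16/Cd81-high cells and all other Col1a1-positive cells in the reporter library and of 1.77 in the wild-type library. Its means were 0.126 against 0.369 in the first and 0.727 against 0.206 in the second. The wild-type ratio was -1.12 with the limits of the rule raised by the ratio of library depths and -0.82 after thinning to the reporter depth, so the libraries then had the same direction. Atp1b1, a sodium pump subunit, had 3.32 in the reporter library and -1.65 in the wild type for the same comparison, at means of 0.209 against 0.0120 and 0.312 against 0.998. The comparison cells were unlike, since 2429 of 4260 in the wild type and 50 of 3511 in the reporter library held Epcam or Ptprc, with summed epithelial markers at a mean of 26.0 in the former, and their part in the Sfrp2 and Atp1b1 values was not tested. Plk2 had -1.71 and 1.34 against the low-sum cells, at means of 0.0674 against 0.243 and 0.617 against 0.237. Each stood out because the libraries differed in direction, and with 1 library each the difference was not tested.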

How the results depend on the processing

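No paired analysis was possible because each group is 1 library and no label ties cells to mice. Raising the marker limit to 5 left 460 cells in place of 697. Against all other Col1a1-positive cells (140 higher, 195 lower), a pseudocount of 0.1 gave 83 and 93, no filter on low values 358 and 634, a filter at 25% of cells 76 and 74, and thinning 114 lower. Against low-sum cells (137 and 172) the same settings gave 82 and 85, 372 and 550, 70 and 71, and 97 lower. Against crypt-top-gene cells (288 and 557) they gave 189 and 247, 755 and 1396, 165 and 222, and 307 lower. In the wild-type library, 493 higher genes became 262 with the pseudocount of 0.1 and 233 after thinning to the reporter depth of 3150. The filters change how many genes enter. The cause was not tested for the others. Sfrp2 in the wild type reversed from 1.77 to -1.12 with the limits of the rule raised by the ratio of library depths (322 cells) and to -0.82 after thinning (494 cells). No ratio of a named gene that was called in the reporter library reversed under the alternatives run. Of the planned values of named genes, 3343 stayed close to the main value, 237 moved and 2 reversed. Settings chosen after seeing the data, which left out cells with immunoglobulin sums above 10, with under 500 genes or with endothelial, pericyte or glial sums above 2, gave 501 close and 11 moved, and moved no count of genes by over 1.5 times. The wild-type comparison with low-sum cells was also added after seeing the data. Depth limits what can be said of genes under 10% of cells, such as Wnt2, Rspo1, Fst and Dpp4, and the mice behind each library cannot be separated.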
